A study of Homo sapiens with 4 samples.

Results

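The transcription factors that set intestinal epithelial identity, CDX1, CDX2, HNF4A, HNF4G, FOXA1, FOXA2 and SOX9, were followed in a nascent RNA experiment on a colon cancer cell line depleted of KAP1. The 7 genes were taken by symbol from the 19901 protein-coding genes of the count table, and each matched 1 Ensembl identifier. Transient Transcriptome Sequencing (TT-Seq) was used, in which cells receive a short pulse of 4-thiouridine (4sU) and only the labelled, newly made RNA is purified and sequenced, so the values follow ongoing transcription more closely than total RNA does. HCT116 cells come from a human colorectal carcinoma. In the line used, HCT116 KAP1_dTAG clone D5, both copies of KAP1 (gene symbol TRIM28) carry a C-terminal FKBP12 F36V degron, and every library of both groups derives from this 1 clone. The DMSO group received the solvent for 8 h, and the dTAG group received 500 nM dTAG-13, which directs the tagged KAP1 protein to the proteasome, for 8 h. Both groups were kept in standard growth medium, were labelled with 500 µM 4sU for the last 10 min, and had 2 biological replicates, each pooled from several dishes. The question was whether acute loss of KAP1, a corepressor that also acts at promoters of active genes, changed transcription of these factors.

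CDX1 and CDX2 are caudal-type homeobox proteins that switch on the gut program in the embryo and maintain it in the adult intestine. HNF4A and HNF4G are nuclear receptors that act with CDX2 on enterocyte genes, many of them for lipid handling and the brush border, and FOXA1 and FOXA2 are forkhead pioneer factors, proteins that can bind their sites in closed chromatin. SOX9 is an HMG-box protein of crypt stem and progenitor cells and of Paneth cells, and is a known target of Wnt signalling.

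Gene counts per library lay between 93105627 and 102314741, and values are given as CPM, counts scaled to the TMM-corrected library size. A minimum of 50 counts in every library left 12612 genes, of which 895 (7.1%) passed an adjusted p of 0.05 in edgeR's quasi-likelihood test, with 434 higher and 461 lower in dTAG. TRIM28 itself was at 61.6 and 69.7 CPM in DMSO and at 53.5 and 47.9 CPM in dTAG (log2 fold change -0.37 ± 0.092 SE, adjusted p = 0.0189, edgeR). It has 59.3% GC, and tested genes in the highest of 10 bins by GC content, to which it belongs, had a median of -0.26. Since dTAG-13 acts on the protein, the RNA of TRIM28 does not check the group labels. The epithelial origin of the cells was seen in 8 of 8 epithelial markers, which passed the count minimum and summed to 1189 and 1226 CPM in DMSO and 1205 and 1103 CPM in dTAG, KRT18 and KRT19 leading per kilobase. Fibroblast markers summed to 5.65 to 5.90 CPM in DMSO and 5.19 to 5.54 CPM in dTAG, nearly all from COL1A1, and 3 of the 7, COL1A2, PDGFRA and LUM, had 0 counts in every library. Among blood cell markers the kinase LYN, which is not restricted to blood, gave nearly all of the 192 to 194 CPM in DMSO and 204 to 207 CPM in dTAG, and PTPRC had at most 1 count. No gene of these 3 lists passed the test in the main analysis, and their part in the results below was not tested.

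Promoter sequence was at hand for 3 of the members and is shown because some of these factors are known to bind each other's regulatory regions. Each line is the 250 bases before an annotated start, 5′ to 3′ on the strand of the gene, from RefSeq on GRCh38.p14. Capitals mark letters that match a motif in either direction: TTTATNG for CDX, CAAAGTCCA for HNF4, TGTTTAC for FOXA and AACAAT for SOX. HNF4A has 2 windows because it has 2 promoters, the more distant one upstream known as P2 and the other as P1. The windows of CDX2, FOXA1 and HNF4A P1 lie inside the counted intervals of their genes, so those starts differ from the outer start in the counts.
CDX2, chr13:27969316-27969565, minus strand: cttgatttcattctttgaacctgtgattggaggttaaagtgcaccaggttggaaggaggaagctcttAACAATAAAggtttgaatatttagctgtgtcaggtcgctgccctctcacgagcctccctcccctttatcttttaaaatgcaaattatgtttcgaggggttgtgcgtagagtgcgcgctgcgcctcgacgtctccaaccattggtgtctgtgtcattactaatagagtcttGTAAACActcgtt
FOXA1, chr14:37595250-37595499, minus strand: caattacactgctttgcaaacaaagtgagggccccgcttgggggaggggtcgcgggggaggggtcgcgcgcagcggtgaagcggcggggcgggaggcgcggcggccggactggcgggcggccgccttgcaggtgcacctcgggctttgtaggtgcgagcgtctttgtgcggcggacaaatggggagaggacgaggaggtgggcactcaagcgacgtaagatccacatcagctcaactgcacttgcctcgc
HNF4A P2, chr20:44355449-44355698, plus strand: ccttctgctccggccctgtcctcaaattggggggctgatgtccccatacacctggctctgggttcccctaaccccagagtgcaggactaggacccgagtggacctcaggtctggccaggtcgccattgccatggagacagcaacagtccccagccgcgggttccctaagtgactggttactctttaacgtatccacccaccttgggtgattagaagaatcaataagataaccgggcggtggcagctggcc
HNF4A P1, chr20:44400989-44401238, plus strand: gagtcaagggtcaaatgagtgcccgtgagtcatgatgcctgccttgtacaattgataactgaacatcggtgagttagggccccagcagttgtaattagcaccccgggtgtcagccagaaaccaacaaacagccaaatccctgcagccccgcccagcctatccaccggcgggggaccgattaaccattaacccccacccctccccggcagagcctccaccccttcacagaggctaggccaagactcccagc

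The CDX2 window held matches for 3 of the 4 motifs. A SOX match on the plus strand of the gene began 183 bases before the start and overlapped a CDX match on the minus strand that began 181 bases before it, and a FOXA match lay 13 bases before the start. The windows of FOXA1 and HNF4A held none of these letter strings. Among 35116 promoters of the same length, 8.93% held the CDX motif, 8.98% the SOX motif, 2.98% the FOXA motif and 0.325% the HNF4 motif. A match is a description of the letters and says nothing of binding. The CDX2 window had 45.2% GC against a median of 58.0% over all promoters, and the FOXA1 window had 67.2%.

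At steady growth in DMSO, the 7 factors differed widely in nascent level, compared here as CPM per kilobase of gene. SOX9 led with 5.11 ± 0.116 CPM per kilobase (SD, n = 2), a level above 90.9% of tested genes. CDX2 followed with 2.38 ± 0.309 CPM per kilobase, at the 75.7th percentile, so both lay above the median of 1.06 CPM per kilobase. FOXA1 was at 0.392 ± 0.0565 CPM per kilobase. HNF4A was at 0.205 ± 0.0034 CPM per kilobase. HNF4G was at 0.0672 ± 0.0074 CPM per kilobase. These 3 lay between the 8.48th and the 25.5th percentile of tested genes. SOX9 was 2.15-fold above CDX2, CDX2 was 6.06-fold above FOXA1, FOXA1 was 1.91-fold above HNF4A and HNF4A was 3.05-fold above HNF4G. In each of these neighbouring pairs the 4 libraries of 1 gene did not overlap the 4 of the other, so the order was the same in DMSO and in dTAG. CDX1 and FOXA2 were at or near 0 and could not be ordered. Genes on the opposite strand overlap SOX9, HNF4A and FOXA1, and the strand setting of the counting is not given. Levels of these factors can therefore include reads of the overlapping genes. The whole gene was counted, introns included, and the levels are per kilobase of the annotated interval, which can exceed the transcribed length. The windows of CDX2, FOXA1 and HNF4A P1 lie inside these intervals, and which starts the cells used was not tested. The order of levels and the fold steps hold for the annotated intervals only.

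**Figure D1:**
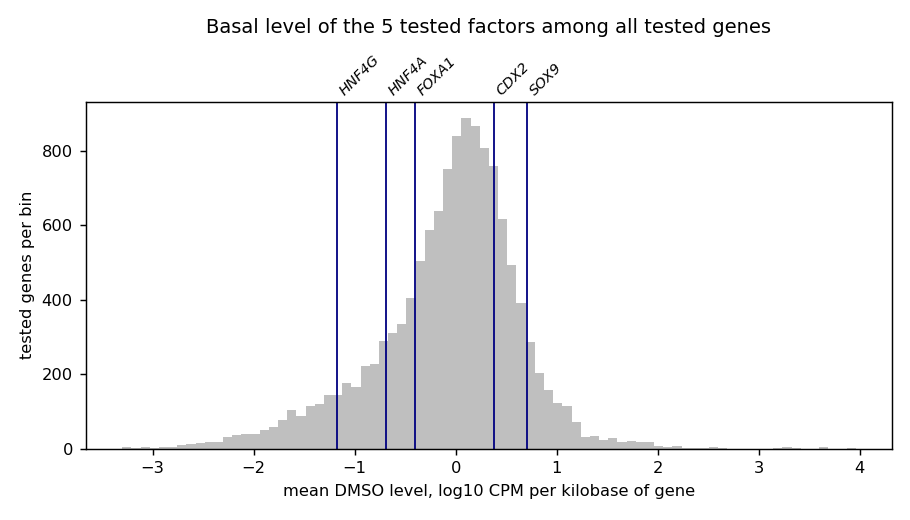
Histogram of the mean DMSO level of the 12612 tested genes on a log10 axis of CPM per kilobase, with the positions of the 5 tested factors marked. SOX9 and CDX2 lie in the upper part of the distribution, and FOXA1, HNF4A and HNF4G lie in the lower part.

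Of the 7 factors, 5 passed the count minimum in all libraries and 2, CDX1 and FOXA2, did not. By edgeR, by DESeq2 and at an unadjusted p under 0.05, SOX9 alone of the 5 was called higher in dTAG and 0 were called lower. By sign alone, 2 of the 5 had a positive log2 fold change and 3 a negative one. Over all tested genes 3.44% were called higher and 3.66% lower by edgeR. None of the 5 changed by 1.5-fold with an adjusted p under 0.05, which 1.64% of tested genes did. The median log2 fold change of the 5 was -0.11, against -0.015 over all tested genes. Both dTAG libraries lay above both DMSO libraries for SOX9 and below them for HNF4A and FOXA1, while the groups overlapped for CDX2 and HNF4G. Such separation is common here, since both dTAG libraries lay above in 28.1% of tested genes and below in 30.7%, or 58.8% in all. The libraries are bulk, so fewer cells transcribing a gene and less RNA made per cell cannot be told apart.

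**Figure D2:**
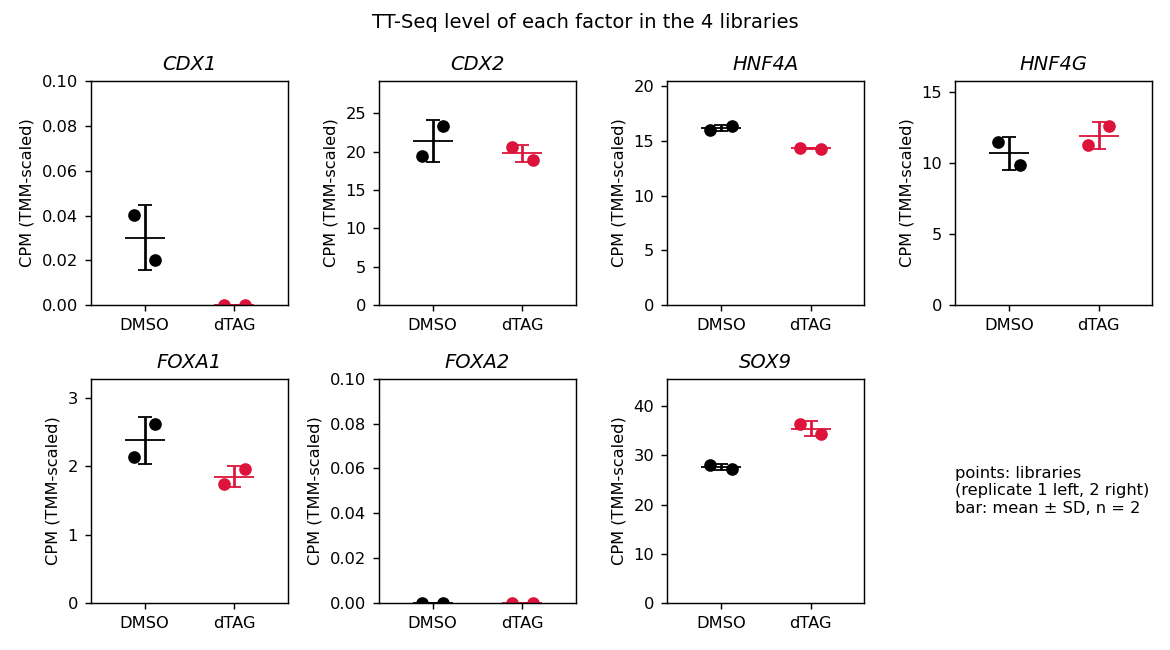
CPM of each of the 7 factors in the 2 DMSO and the 2 dTAG libraries, 1 panel per gene with its own axis from 0, points for libraries, and a bar with whiskers for the mean and SD. SOX9 shows both dTAG points, 36.5 and 34.4 CPM, above both DMSO points, 28.0 and 27.1 CPM, whereas CDX2 and HNF4G overlap and CDX1 and FOXA2 sit at or near 0.

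Among the caudal factors, CDX2 was the one transcribed. CDX2 (ENSG00000165556.9, chr13:27962136-27971139 on hg38, minus strand) had 1925 and 2332 counts in DMSO and 2061 and 1712 counts in dTAG. In CPM these were 19.4 and 23.4 in DMSO and 20.6 and 19.0 in dTAG. The DMSO replicate 2 library was the high one, and both dTAG values were at or near the lower DMSO value. The log2 fold change of CDX2 was -0.11 ± 0.12 (SE), with a 95% confidence interval from -0.36 to 0.13 and an adjusted p of 0.55 (edgeR). The sign of this difference turned to 0.024 when DMSO replicate 2 was left out. It also turned, to 0.11, when the trend with GC content and length was removed, and to 0.13 with a factor estimated from the ERCC spike-ins. CDX1 (ENSG00000113722.16, chr5:150166794-150184558, plus strand), its paralog, had 4 and 2 counts in DMSO and 0 in both dTAG libraries. A count of 0 allows up to 3 counts, or about 0.0299 and 0.0332 CPM in the dTAG libraries, and the DMSO libraries at 0.0404 and 0.0200 CPM lay around that limit, so no fold change could be given. CDX4, the remaining paralog of the family, had 0 counts throughout.

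HNF4A and HNF4G were both transcribed, at low levels per kilobase over long genes. HNF4A (ENSG00000101076.16, chr20:44355699-44434596, plus strand) had 1584 and 1634 counts in DMSO and 1436 and 1290 counts in dTAG. This came to 16.0 and 16.4 CPM in DMSO and to 14.3 CPM in each dTAG library. Replicates lay close together, and both dTAG libraries were below both DMSO libraries. The log2 fold change of HNF4A was -0.18 ± 0.12 (SE), with an interval from -0.42 to 0.070 and an adjusted p of 0.345 (edgeR). HNF4A-AS1, an antisense long noncoding RNA, covers 29.1% of the HNF4A interval, and the strand setting of the counting is not given in the sources used here, so reads of the 2 genes cannot be told apart.

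HNF4G (ENSG00000164749.11, chr8:75407913-75566843, plus strand) is the paralog that shares much of its intestinal binding with HNF4A. It had 1140 and 983 counts in DMSO and 1127 and 1139 counts in dTAG, or 11.5 and 9.85 CPM in DMSO and 11.2 and 12.6 CPM in dTAG. The groups overlapped, with dTAG replicate 2 highest and DMSO replicate 2 lowest. The log2 fold change of HNF4G was 0.16 ± 0.14 (SE), with an interval from -0.12 to 0.44 and an adjusted p of 0.463 (edgeR).

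Setting the 2 receptors against each other within a library removes library scaling. The log2 ratio of HNF4A to HNF4G counts was 0.47 and 0.73 in DMSO and 0.35 and 0.18 in dTAG. It was thus lower in both dTAG libraries, by -0.34 on the log2 scale (dTAG minus DMSO) with a pooled SD of 0.15. An exact two-sided permutation test gave p = 0.333, which is the smallest value that 2 against 2 libraries allow. HNF4A has 48.2% GC and HNF4G 35.5%, and across tested genes log2 fold changes were lower at higher GC content. With the trend on GC content and length removed, HNF4A was at -0.15 and HNF4G at -0.040 on the log2 scale, so the 2 receptors lay closer together than in the main analysis (-0.18 and 0.16). With the ERCC factor they were at -0.15 and -0.059.

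Between FOXA1 and FOXA2, FOXA1 was the one with counts, and these were few. FOXA1 (ENSG00000129514.5, chr14:37589983-37596059, minus strand) had 212 and 262 counts in DMSO and 174 and 177 counts in dTAG, or 2.14 and 2.62 CPM in DMSO and 1.74 and 1.96 CPM in dTAG. Both dTAG libraries were below both DMSO libraries. The log2 fold change of FOXA1 was -0.37 ± 0.22 (SE), with an interval from -0.83 to 0.093 and an adjusted p of 0.292 (edgeR), the widest interval of the 5 factors. TTC6, on the opposite strand, shares 3.52% of the FOXA1 interval in the count table and had 94 and 119 counts in DMSO and 76 and 79 in dTAG (log2 fold change -0.39 ± 0.27 SE, adjusted p = 0.352, edgeR). Reads in the shared bases cannot be assigned to either gene without strand. FOXA3, the paralog better known from liver, was at 5.46 and 5.61 CPM in DMSO and 4.75 and 4.42 CPM in dTAG (log2 fold change -0.27 ± 0.17 SE, adjusted p = 0.299, edgeR). Per kilobase FOXA3 reached 0.564 CPM in DMSO, above FOXA1 at 0.392 CPM.

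FOXA2 (ENSG00000125798.14, chr20:22581004-22585455, minus strand) had 0 counts in all 4 libraries, which allows up to 3 counts in each. Of its 4452 bases, 3258 are shared on the same strand with ENSG00000283932.1, a second entry of the table that had 1 count in DMSO replicate 1 and 0 elsewhere. A counter that sets aside reads falling in 2 genes would leave only 1194 bases to count FOXA2 from. How such reads were treated is not given in the sources used here, so the 0 does not show that FOXA2 was silent.

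SOX9 was the factor called higher in dTAG. SOX9 (ENSG00000125398.6, chr17:72121019-72126420, plus strand) had 2778 and 2710 counts in DMSO and 3656 and 3108 counts in dTAG. In CPM it was at 28.0 and 27.1 in DMSO and at 36.5 and 34.4 in dTAG. Both dTAG libraries stood well above both DMSO libraries, whose values were close together. The log2 fold change was 0.36 ± 0.098 (SE), a 1.29-fold increase with a 95% confidence interval from 1.12-fold to 1.48-fold and an adjusted p of 0.0309 (edgeR). The value lay at the 97.1th percentile of tested genes. SOX9 remained positive in all 15 alternative analyses and passed the threshold in 10. Some of these 10 called more of all tested genes than the main analysis did. Removing the trend on GC content and length called 1343 higher and 941 lower. With the replicate number as a block as well, that correction called 1507 higher and 1130 lower. The adjusted p of SOX9 was 0.0739 with upper-quartile normalization, 0.472 with ERCC totals as library sizes and 0.128 with the block alone. It was 0.462 without dTAG replicate 1 and 0.62 without dTAG replicate 2, with log2 fold changes of 0.32 and 0.40. SOX9-AS1 and ENSG00000288605, antisense long noncoding RNAs, each cover 100% of the SOX9 interval in GENCODE 44, so without strand the rise cannot be assigned to SOX9 alone. Its relatives SOX8, at 173 to 233 counts (log2 fold change -0.066 ± 0.22 SE, adjusted p = 0.867, edgeR), and SOX10, at 1 to 5 counts, were low.

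**Figure D3:**
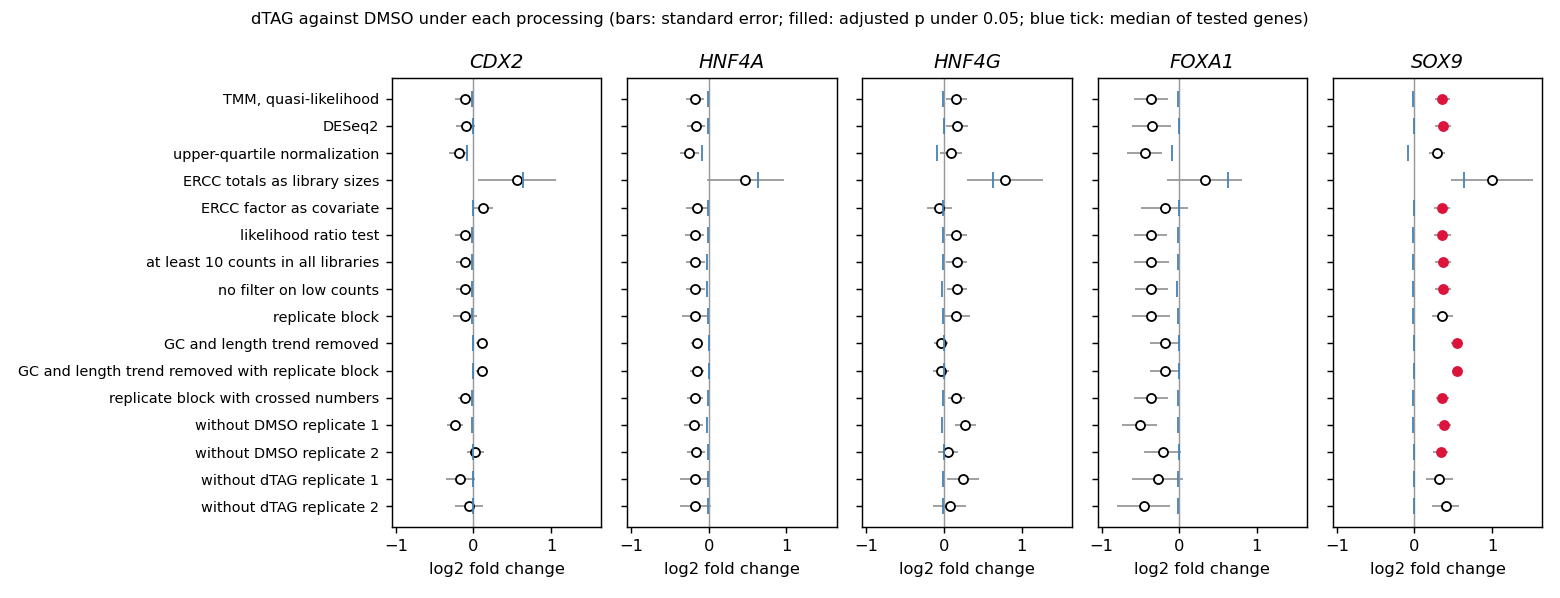
Log2 fold change of dTAG against DMSO for the 5 tested factors under the main analysis and 15 alternatives, 1 panel per gene, with bars for the standard error, filled points for an adjusted p under 0.05 and blue ticks for the median of all tested genes. SOX9 is to the right of 0 in every row and filled in the main analysis and 10 alternatives, and with ERCC totals the 5 genes move right together with the median, to 0.63.

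Spike-in totals moved all genes together. With library sizes taken from the ERCC RNAs the median over the table shifted to 0.63 on the log2 scale, and the ERCC share of counts, 0.0150% and 0.0265% in DMSO and 0.0136% and 0.0103% in dTAG, differed between replicates. Relative to that median SOX9 was 0.36 higher, about as in the main analysis. On that scale CDX2, HNF4A and FOXA1 took positive values of 0.56, 0.47 and 0.33, with no factor passing the test. The comparisons here are therefore relative to the other genes of the same library and not statements on absolute output.

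The GC content of a gene moved with its log2 fold change over the whole table. Spearman's rho across the 12612 tested genes was -0.56 with GC content and 0.42 with gene length, as a description across genes that are not independent. With the genes divided into 10 equal bins by GC content, the median log2 fold change went from 0.15 in the lowest bin to -0.26 in the highest. HNF4G, in the lowest bin, lay at the 51.6th percentile of it. CDX2, in the ninth, lay at the 64.7th percentile of genes with similar GC content. HNF4A was at the 29.1th percentile and FOXA1 at the 12.7th of their bins, so these 4 lay between the extremes. SOX9, with 53.3% GC and a length of 5402 bases, belongs to a bin whose median was -0.14 and whose 95th percentile was 0.16, and it lay at the 98.9th percentile there. With the trend on GC content and length removed, the SOX9 log2 fold change was 0.55 ± 0.074 (SE, adjusted p = 3.4e-04, edgeR), over 1.5 times the main value. The same correction brought FOXA1 from -0.37 to -0.19, HNF4A from -0.18 to -0.15 and HNF4G from 0.16 to -0.040, and turned CDX2 from -0.11 to 0.11, with none of these 4 passing the test. The paralogs FOXA3 and SOX8 moved to -0.093 and 0.27, also without passing it.

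**Figure D4:**
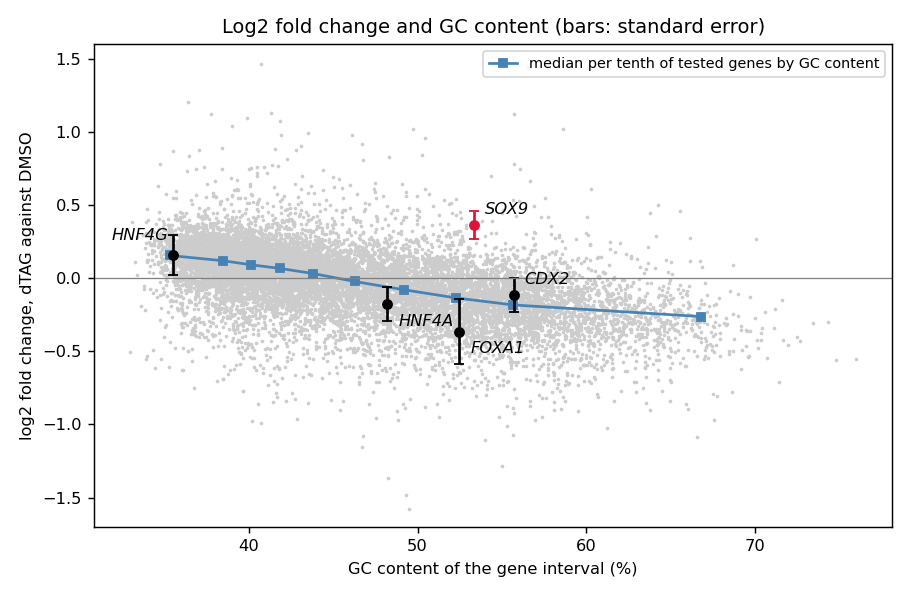
Log2 fold change of dTAG against DMSO plotted against GC content of the gene interval in percent, grey points for all tested genes, blue squares for the median of each of 10 bins by GC content, and labelled points with standard error bars for the 5 factors. CDX2, HNF4A, HNF4G and FOXA1 lie in or near the bulk of genes of like GC content, and SOX9, in red for an adjusted p under 0.05, lies above it.

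For each tested factor the genes with the most similar profile were sought, as the distance between log2 CPM values centred on their mean over the 4 libraries. SOX9 lay nearest to ACOT9, a mitochondrial acyl-CoA thioesterase, at a distance of 0.0255, and to ANKRD33B at 0.0288. CDX2 had FAM220A among its nearest genes, at 0.0206. HNF4A lay nearest to the proteasome ATPase PSMC5 at 0.0118 and to XAB2 at 0.0131. HNF4G lay nearest to AP4E1, a subunit of an adaptor complex, at 0.0072 and to the calpain CAPN7 at 0.0118. FOXA1 lay nearest to the kinase CDC42BPG at 0.0237 and to EME2 at 0.0299. No member was among the nearest of another, and with 4 libraries a near profile is a description only.

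Related gut genes, the paralogs and the cell type markers made up 9 lists of 118 genes in all, of which 47 could be tested. Of the 47, 3 rose and 3 fell at an adjusted p of 0.05 (edgeR), and their median log2 fold change was -0.10, against -0.015 over all tested genes. The shares called over all tested genes were 3.44% higher and 3.66% lower, to be set beside the counts of each list below.

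Among 25 other transcription factors of the gut epithelium 16 were tested, with 1 higher, 2 lower and a median log2 fold change of -0.090. KLF5, a zinc finger factor of proliferating crypt cells, was at 97.5 and 87.1 CPM in DMSO and at 139 and 134 CPM in dTAG. It rose by 0.57 ± 0.086 on the log2 scale (SE, adjusted p = 4.3e-04, edgeR) and was called in 13 of 15 alternatives, the exceptions being ERCC totals and the omission of dTAG replicate 1. ELF3, an ETS factor of epithelial differentiation, was at 54.7 and 68.1 CPM in DMSO and at 47.1 and 45.6 CPM in dTAG (log2 fold change -0.41 ± 0.099 SE, adjusted p = 0.0179, edgeR). HES1, the Notch target that restrains secretory fate, was at 15.8 and 16.3 CPM in DMSO and at 11.4 and 10.3 CPM in dTAG (log2 fold change -0.56 ± 0.13 SE, adjusted p = 0.0108, edgeR). In each of these genes the groups did not overlap, as was the case for 58.8% of all tested genes. The calls of ELF3 and HES1 were lost without dTAG replicate 1, without dTAG replicate 2 and with ERCC totals, and that of ELF3 also with the ERCC factor. With ERCC totals ELF3 took a value of 0.28 and HES1 of 0.080, both below the shifted median. ELF3 ranged from -0.55 without DMSO replicate 1 to -0.24 without DMSO replicate 2. With the trend on GC content and length removed, ELF3 was at -0.19 (adjusted p = 0.0269, edgeR), HES1 at -0.37 (adjusted p = 0.0115) and KLF5 at 0.48 (adjusted p = 1.8e-05). That correction called 7 genes of the list, and it called 1343 higher and 941 lower among all 12612 tested genes. TCF7L2, the Wnt pathway factor and the member with the highest level of the list, was at 3309 and 3224 CPM in DMSO and at 2705 and 2915 CPM in dTAG and had a log2 fold change of -0.22 (adjusted p = 0.282, edgeR).

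The crypt stem and progenitor list, to which SOX9 is closest by its known role, had 10 of 13 genes tested, 2 higher and 1 lower, with a median of 0.023. SLC12A2, a chloride cotransporter of crypt cells, was at 97.7 and 76.9 CPM in DMSO and at 116 CPM in both dTAG libraries (log2 fold change 0.41 ± 0.097 SE, adjusted p = 0.016, edgeR). PROM1, the surface protein CD133, was at 79.7 and 78.9 CPM in DMSO and at 99.0 and 97.4 CPM in dTAG (log2 fold change 0.31 ± 0.082 SE, adjusted p = 0.0274, edgeR). EPHB3, an ephrin receptor of the crypt base, was at 5.90 and 7.92 CPM in DMSO and at 4.98 and 3.09 CPM in dTAG (log2 fold change -0.77 ± 0.20 SE, adjusted p = 0.0264, edgeR), past 1.5-fold. Members of this list thus moved both ways. The SLC12A2 call was lost in 4 of the 15 alternatives, that of PROM1 in 5 and that of EPHB3 in 3, and with the replicate block PROM1 had an adjusted p of 0.142. EPHB3 ranged from -1.16 without dTAG replicate 1 to -0.47 without dTAG replicate 2, where its call was lost, and SLC12A2 was at 0.24 without DMSO replicate 2. With the trend on GC content and length removed, SLC12A2 was at 0.20 (adjusted p = 0.00836, edgeR), PROM1 at 0.23 (adjusted p = 0.00337) and EPHB3 at -0.54 (adjusted p = 0.045). CD44 and CDCA7, at 10.9 and 4.28 CPM per kilobase, had the highest levels of the list, with log2 fold changes of 0.11 and -0.0027 that did not pass the test.

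Differentiated genes were largely below the count minimum. Of 31 enterocyte genes, among them many regulated by CDX2 and HNF4A in normal gut, 6 were tested and 3 had 0 counts in every library. None passed the adjusted threshold in the main edgeR analysis. DESeq2 called 1 lower, against 670 higher and 559 lower among all tested genes. At an unadjusted p under 0.05 (edgeR) 3 were lower, and the share of all tested genes at that level is not given here. Other analyses called more of the 6, with 1 for the likelihood ratio test, upper-quartile normalization or no filter. There were 3 with the trend on GC content and length removed and 4 with that correction and the replicate block. These settings also called more of all 12612 tested genes. Trend removal called 1343 higher and 941 lower without the block, and 1507 higher and 1130 lower with it. On the TMM scale all 6 had negative log2 fold changes, from -0.63 to -0.12, with a median of -0.41. CDHR2, a brush border protocadherin and the lowest of them, was at 4.04 and 5.81 CPM in DMSO and at 3.46 and 2.89 CPM in dTAG (log2 fold change -0.63 ± 0.20 SE, adjusted p = 0.0585, edgeR). It passed the threshold in 8 of the 15 alternatives, and was named after its values were seen. CA2, a carbonic anhydrase, and SLC9A3, a sodium proton exchanger, had the highest levels, 0.770 and 0.209 CPM per kilobase, with log2 fold changes of -0.22 and -0.12.

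Of 13 secretory lineage genes only FCGBP and SYP could be tested, with log2 fold changes of -0.32 and 0.11, adjusted p of 0.266 and 0.802 (edgeR), and none called by DESeq2 or at an unadjusted p under 0.05. Of 10 liver genes that HNF4A and FOXA factors are known to drive there, SERPINA1 alone was tested, at 0.767 and 0.791 CPM in DMSO and 0.878 and 0.764 CPM in dTAG, and 4 had 0 counts in every library. The 8 epithelial markers had a median of -0.13 with no call in the main edgeR analysis, 1 higher and 2 lower at an unadjusted p under 0.05, and 1 higher in DESeq2. Of these markers 2 were called with upper-quartile normalization, and 3 with the trend on GC content and length removed, with or without the block. Among all 12612 tested genes DESeq2 called 670 higher and 559 lower, and upper-quartile normalization 255 higher and 869 lower. Trend removal without the block called 1343 higher and 941 lower. The share of all tested genes at an unadjusted p under 0.05 is not given here.

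**Figure D5:**
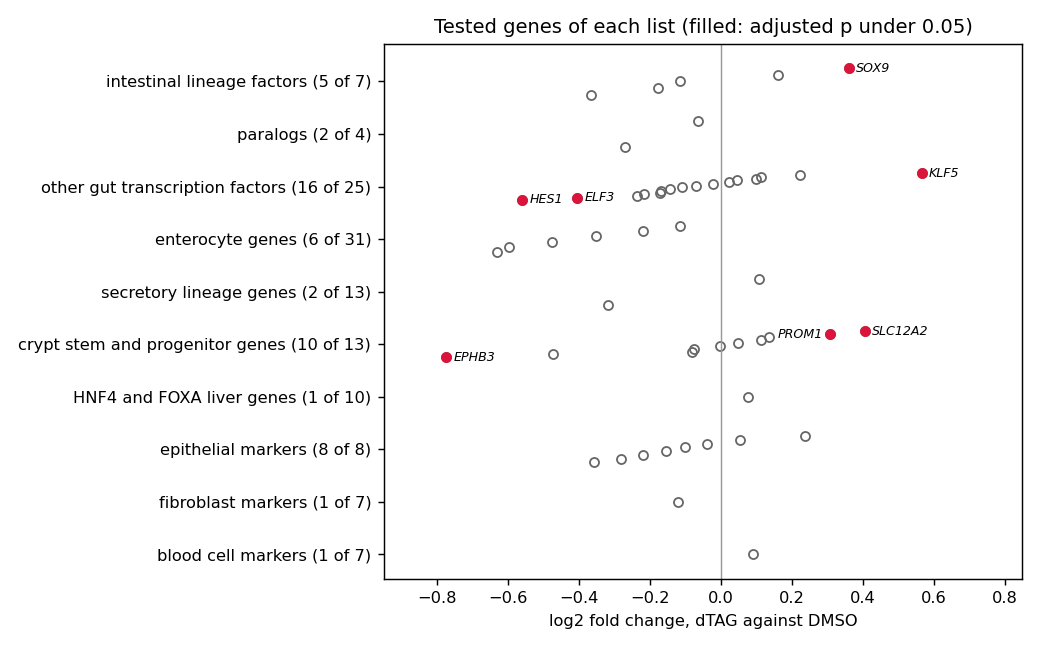
Log2 fold change of dTAG against DMSO for the tested genes of the factors and of each related list, 1 row per list, 1 point per gene, filled for an adjusted p under 0.05 and with called genes named. SOX9, KLF5, SLC12A2 and PROM1 are the filled points to the right of 0, and ELF3, HES1 and EPHB3 those to the left.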

How the data were processed

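TT-Seq was analysed in 4 libraries, DMSO and dTAG with 2 replicates each, grouped by their titles. The authors trimmed reads of 50 bases with Trim Galore 0.6.4, checked them with FastQC 0.11.8, aligned them with STAR to hg38 and deposited raw counts over whole protein-coding genes and 92 ERCC RNAs from featureCounts (Subread 1.6.3, per the labels). Strand setting and treatment of overlapping genes are not given in the sources used here. The study's spike-in normalization is named without its parameters, so TMM was used here.

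Counts were fitted with edgeR 4.0.16 (quasi-likelihood test, TMM, a minimum of 50 counts in each of the 4 libraries, Benjamini-Hochberg adjustment). SE is the log2 fold change divided by the root of F. The edgeR p-values and intervals rest on the spread between 2 replicates per group, pooled with a variance estimate shared over the tested genes. In the main fit the total was 20.9 degrees of freedom, most of them from the shared estimate. Limits for a count of 0 cover counting error only. GC content is that of the hg38 gene interval. Promoters came from RefSeq and were equal to hg38 in 4 of 4 windows, with no entry for CDX1, FOXA2 and SOX9. Named genes were all members and paralogs, in each list the genes past adjusted p 0.05 and the 2 with the highest DMSO level per kilobase, the 2 nearest profiles per tested member (1 of them is not reported here), and TRIM28. The members and lists were chosen with earlier results of these data known. Tested on simulated data with 12612 genes for dTAG against DMSO, the test recovered 88% of 1.5-fold and 100% of 2-fold changes with 3.59% false calls. With a GC trend simulated as well it recovered 45% and 94% with 0% false calls. The fit with the trend removed recovered 82% and 98% with 3.23% false calls. The simulated trend ran between replicates and cancelled within each group, whereas the trend in the data ran between the groups. The simulation therefore cannot show how either fit behaves on the latter. Alternatives were DESeq2 1.42.0, other scalings, filters, tests, blocks, a GC and length correction and the omission of each library. A block with crossed numbers was added after seeing the data.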

Additional observations from a re-analysis of the deposited data

How the results depend on the processing

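Over 15 alternatives CDX2, HNF4A, HNF4G and FOXA1 were never called, and SOX9 was called in 10. The factors called higher numbered 0 with upper-quartile normalization, with ERCC totals as library sizes and with the replicate block, and 0 to 1 when 1 library was left out, where the lone library of a group is assumed to vary like the others. The cause was not tested. SOX9 lost its call at 0.29 with upper-quartile normalization, 1.00 with ERCC totals and 0.36 with the block, and ranged from 0.32 to 0.40 with a library left out, losing it without dTAG replicate 1 or 2. The sign turned for CDX2 to 0.56 with ERCC totals, 0.13 with the ERCC factor, 0.11 with the GC and length trend removed and 0.11 with that correction and the block (-0.24 to 0.024 with a library left out, the positive value without DMSO replicate 2), for HNF4A to 0.47 with ERCC totals (-0.19 to -0.16), for HNF4G to -0.059 with the ERCC factor and -0.040 with the trend removed, without or with the block (0.051 to 0.28), and for FOXA1 to 0.33 with ERCC totals (-0.51 to -0.21). The log2 ratio of HNF4A to HNF4G ranged from -0.47 to -0.21 with a library left out.

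Over all tested genes, 434 higher and 461 lower became 670 higher with DESeq2, 255 and 869 with upper-quartile normalization, 801 higher with the ERCC factor, 729 and 864 with the likelihood ratio test, 673 and 744 with no filter, 1343 and 941 with the trend removed, and 1507 and 1130 with trend removed and block. With ERCC totals edgeR called 0 in either direction, and 229 genes, all higher, had an unadjusted p under 0.05. With a library left out the counts ran from 48 to 2798 higher and from 21 to 2693 lower. In the related lists, 3 higher and 3 lower became 0 and 0 with ERCC totals, 6 higher and 11 lower with the trend removed, 6 and 12 with trend removed and block, 6 lower with upper-quartile normalization and 5 lower with the likelihood ratio test, and 0 to 6 higher and 0 to 9 lower with a library left out.

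The replicate numbers were not treated as pairs: the deviations of same-numbered libraries correlated at -0.25, and no source ties the numbers to a shared day. With the replicate block 162 genes were called higher and 178 lower. With crossed numbers, chosen after seeing the data, 1587 were higher, 1603 lower, and 9 genes of the related lists lower. FOXA1 at 174 to 262 counts was the factor most limited by depth, and CDX1 and FOXA2 were below what could be tested.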
